A study of Mus musculus with 12 samples.

Results

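WNT proteins and the genes that receive, restrain and transmit their signal were examined in mouse embryoid bodies in which the homeodomain factor LHX1 was induced. The members were taken by symbol from the deposited table: every Wnt, Frizzled (Fzd), secreted Frizzled-related (Sfrp) gene and *Dkk1* to *Dkk4*, with named receptors, antagonists, feedback genes and effectors. They came to 55 of the 23086 rows: 19 ligands, 12 receptors, 10 antagonists, 5 effectors, 3 genes of the destruction complex, 4 genes that set receptor turnover and 2 feedback genes. Of these, 40 had at least 30 counts over the 12 libraries and 32 passed the filter on low counts and were tested. Just inside the limit of 30 stood *Dkk1* with 36 counts, and just outside it *Wnt7a* with 22. The libraries fall into 4 groups of 3. Embryonic stem cells of the A2lox.cre type carrying either FLAG-Lhx1 (called the wild-type line here) or FLAG-Lhx1 mutant (the mutant line) were grown as embryoid bodies for 2 days, and each line was collected with or without 16 h of doxycycline, which switches on the transgene. All 4 groups therefore carry an inducible transgene, and no group lacks one. The labels do not say which part of LHX1 the mutation changes. Each genotype is given as a single line, so a difference between the lines cannot be told apart from a difference between clones or cultures. The labels do not call the replicates separate cultures, and p-values therefore reflect only the spread between these libraries, which may be technical.

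As background, WNT ligands are lipid-modified secreted proteins. They bind a Frizzled together with LRP5 or LRP6, which stops the destruction complex of Axin, APC and kinases from marking β-catenin for degradation, and β-catenin then acts on DNA through TCF/LEF factors. Secreted antagonists bind the ligand (SFRP proteins, FRZB), block LRP5 and LRP6 (DKK proteins) or strip the lipid from the ligand (NOTUM). In the early mouse embryo WNT3 in the posterior epiblast is needed for the primitive streak, and the anterior side, where head tissue forms, is kept under WNT antagonists. LHX1 is required for the head.

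Total counts ran from 4289984 to 4850393 per library. Levels are given as CPM (counts relative to the TMM-adjusted library total), and as CPM per kb of exon where genes are compared with each other. *Lhx1* stood at 3.33, 1.81 and 1.12 CPM in the untreated wild-type libraries and at 307, 289 and 293 CPM with doxycycline. The mutant line held 0.429, 0.407 and 0.428 CPM untreated, which is 2 counts in each library, and 249.9, 260.2 and 235 CPM with doxycycline. *Lhx1* was thus high in all 6 treated libraries, as labelled. A pair of libraries stood apart within their groups. Untreated wild-type replicate 3 had 229 CPM of the hypoxia gene *Bnip3* against 58.5 and 63.3 CPM in the other replicates, and treated wild-type replicate 2 had 1.45% of its counts on the ribosomal RNA gene *Rn45s*. Why they stood apart was not tested. The counts of members and of all genes called were also taken without both, as were the calls on single members and other pathway genes. The mutant response holds neither library and was not refitted in this way. The labelled tissue was checked against epiblast markers (*Pou5f1*, *Sox2*, *Nanog*, *Utf1*, *Dnmt3b*, *Fgf5*, *Otx2* and *Pou3f1*). Their summed level was 4843 to 5220.3 CPM in untreated and 4534 to 4653 CPM in treated wild-type libraries, and 5231 to 5429 and 5155 to 5323 CPM in the mutant line. The 8 did not move together: with doxycycline 1 rose and 3 fell in the wild-type line, and between the untreated lines 2 were higher and 3 lower in the wild-type line. Those called with doxycycline were *Fgf5*, *Nanog*, *Pou3f1* and *Pou5f1*. Of all genes tested, 5.32% were called with doxycycline in the wild-type line and 45.5% between the untreated lines.

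With LHX1 induced in the wild-type line, 4 of 12 receptors, 1 of 5 tested antagonists, 1 of 4 tested ligands and 2 of 5 effectors changed. *Fzd8*, *Fzd5* and *Fzd2* rose, *Fzd7*, the most abundant Frizzled, fell, the antagonist *Sfrp1* rose, and the ligand *Wnt8a* and the effectors *Lef1* and *Tcf7* fell. These 8 of 32 members tested (4 higher, 4 lower) passed edgeR's quasi-likelihood test at an adjusted p under 0.05, where 5.32% of all 12322 genes tested did (2.76% higher and 2.56% lower). The median log2 fold change of the 32 was -0.03 and the median of its size 0.25, beside -0.003 and 0.105 over all genes tested. Without both libraries that stand apart 8 members were called as well. The libraries of the groups did not overlap for 11 of the 32 members (5 higher, 6 lower), where 18.9% of all genes did not overlap (9.84% higher and 9.06% lower). In the mutant line none of the 32 was called by edgeR, and 1 had an unadjusted p under 0.05, where 0.0162% of all genes were called and 4.69% had such a p.

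**Figure D1:**
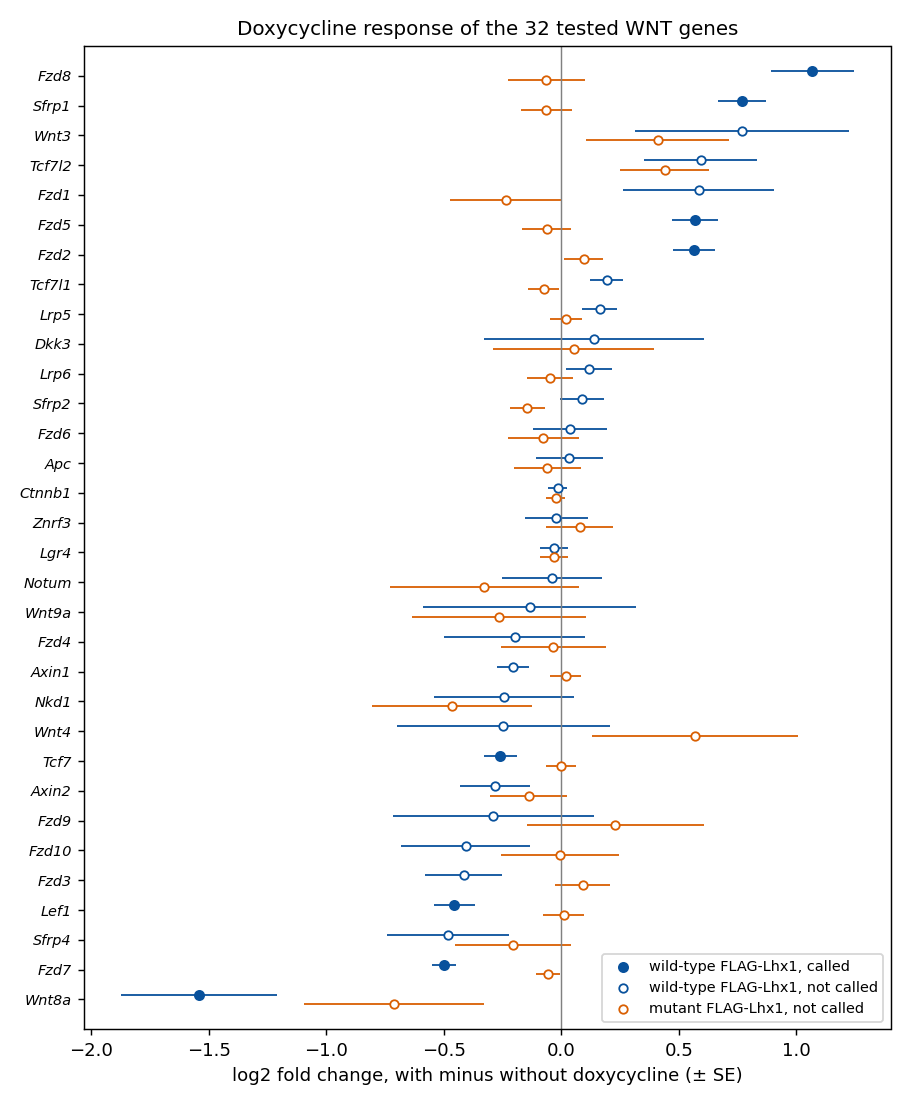
log2 fold change with doxycycline (x axis) of each member tested, in the wild-type and the mutant line, with bars of ± SE; filled points passed an adjusted p under 0.05. The 8 filled points are all in the wild-type line, 4 on each side of 0.

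All 10 Frizzleds, the seven-pass receptors that bind WNT, passed the filter. Per kb of exon and over all 12 libraries *Fzd7* led with 51.4 CPM per kb, followed by *Fzd2* with 12.8 and *Fzd5* with 5.11. The other 7 (*Fzd6*, *Fzd8*, *Fzd10*, *Fzd3*, *Fzd1*, *Fzd9* and *Fzd4*, in falling order) ran from 2.92 to 0.725 CPM per kb. *Fzd7*, a main Frizzled of pluripotent cells, stood at 266, 266 and 249.9 CPM in untreated and 183, 192 and 178 CPM in treated wild-type libraries (log2 fold change -0.50, SE 0.05, adjusted p = 3.02e-11). The mutant libraries held 258, 237 and 249.6 CPM untreated and 229, 246 and 241 CPM treated (log2 fold change -0.06, SE 0.05, adjusted p = 0.999). The 3 treated wild-type libraries were therefore the lowest of all 12, and the mutant groups overlapped. In bulk RNA such as this, fewer cells that express a gene and less RNA per cell cannot be told apart. *Fzd2*, a close relative of *Fzd7* in sequence, went the other way, from 38.1, 33.7 and 33.0 CPM to 54.9, 52.0 and 47.8 CPM in the wild-type line (log2 fold change 0.56, SE 0.09, adjusted p = 8.13e-06). Its mutant libraries held 48.3, 46.8 and 50.9 CPM untreated and 50.9, 53.8 and 51.1 CPM treated (log2 fold change 0.09, SE 0.08, adjusted p = 0.999). Here the untreated wild-type libraries were the 3 lowest, and the treated ones overlapped the mutant line.

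*Fzd5* and *Fzd8*, which are close relatives of each other and are known from the developing eye and forebrain, rose together. *Fzd5* stood at 35.0, 28.3 and 32.5 CPM untreated and 50.7, 42.8 and 48.3 CPM treated in the wild-type line (log2 fold change 0.57, SE 0.10, adjusted p = 2.47e-05), and at 31.1, 32.6 and 31.4 CPM and 30.5, 31.0 and 29.7 CPM in the mutant line (log2 fold change -0.06, SE 0.10, adjusted p = 0.999). *Fzd8* stood at 8.33, 6.78 and 6.72 CPM untreated and 17.8, 13.8 and 14.1 CPM treated in the wild-type line (log2 fold change 1.07, SE 0.18, adjusted p = 1.4e-05). The mutant libraries held 12.9, 12.2 and 10.5 CPM untreated and 11.4, 10.5 and 12.2 CPM treated (log2 fold change -0.06, SE 0.16, adjusted p = 1). For both genes the treated wild-type libraries were the highest of the 12. Without doxycycline the lines overlapped for *Fzd5*, while *Fzd8* was lower in the wild-type line. *Gm38058* on the opposite strand overlaps 17.8% of the *Fzd5* exon length. The strand setting of the counting is not given, so reads of the pair cannot be told apart.

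**Figure D2:**
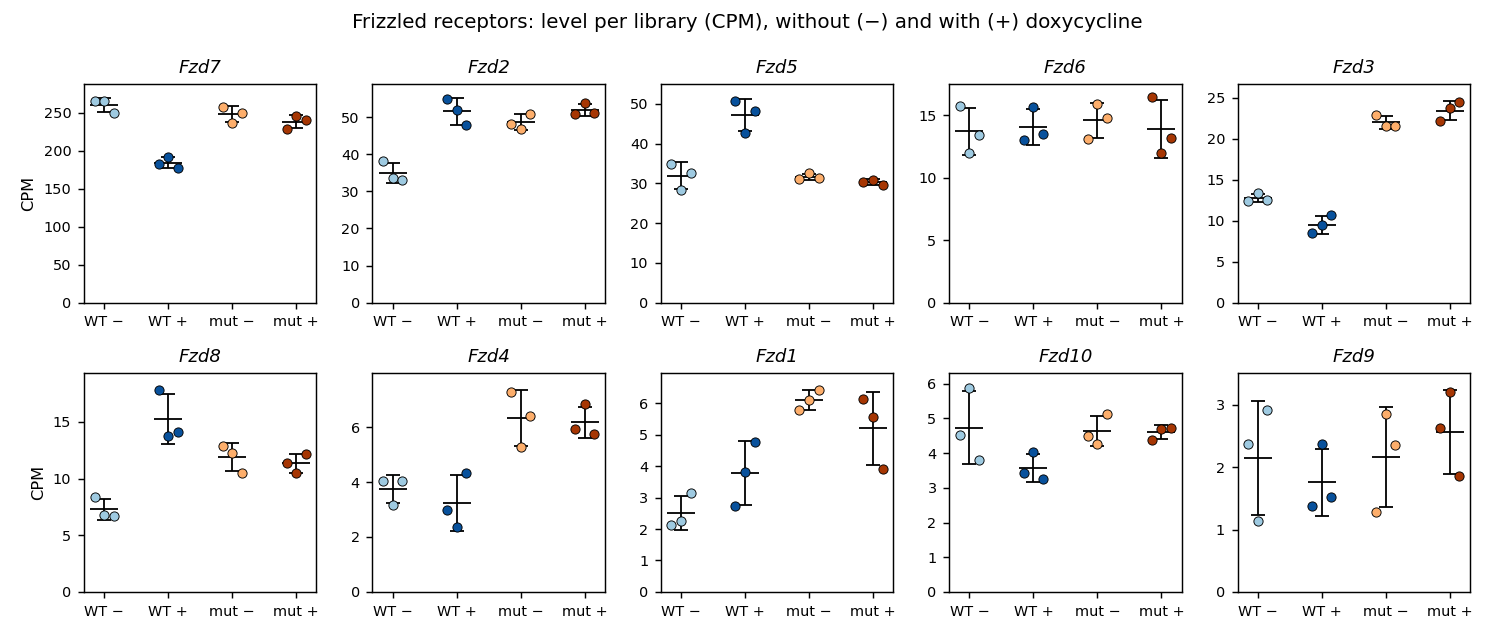
Level of each Frizzled gene in CPM (y axis) per library, by line (WT, wild-type; mut, mutant) and without (−) or with (+) doxycycline; points are libraries and bars the mean ± SD of 3. Treated wild-type libraries are lowest for *Fzd7* and highest for *Fzd5* and *Fzd8*, and for *Fzd2* the untreated wild-type libraries are lowest.

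Promoter sequence from RefSeq (mouse build GRCm38.p6) was given for 36 of the 55 members. The 250 bases before the start site are shown for *Fzd5* (chr1:64737751-64738000, minus strand) and *Fzd7* (chr1:59481897-59482146, plus strand), the receptors that moved in opposite directions, and for *Sfrp2* (chr3:83766071-83766320, plus strand), an antagonist that differed between the lines. They are written 5′ to 3′ along the gene, and capitals mark motif matches.
Fzd5: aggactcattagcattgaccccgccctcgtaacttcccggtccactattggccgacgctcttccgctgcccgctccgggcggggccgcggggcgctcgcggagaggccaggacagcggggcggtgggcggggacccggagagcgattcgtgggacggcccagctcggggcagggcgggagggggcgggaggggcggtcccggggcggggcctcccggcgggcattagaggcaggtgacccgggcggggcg
Fzd7: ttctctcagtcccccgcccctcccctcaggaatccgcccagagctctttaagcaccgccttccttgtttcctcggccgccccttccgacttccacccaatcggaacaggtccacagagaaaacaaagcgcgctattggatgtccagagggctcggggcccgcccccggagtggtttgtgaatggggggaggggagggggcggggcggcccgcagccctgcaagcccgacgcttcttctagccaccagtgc
Sfrp2: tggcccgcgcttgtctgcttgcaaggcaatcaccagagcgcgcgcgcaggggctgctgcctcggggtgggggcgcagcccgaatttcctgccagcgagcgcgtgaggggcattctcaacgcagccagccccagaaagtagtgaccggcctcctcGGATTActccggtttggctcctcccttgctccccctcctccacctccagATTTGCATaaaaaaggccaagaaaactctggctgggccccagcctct

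The motifs searched, on both strands, were TAATTA (core of LIM homeodomain sites), CTTTGAT and CTTTGAA (TCF/LEF sites), TAATCC (sites of OTX2 and GSC type factors) and ATGCAAAT (octamer), the last pair added after the other values were known. They stood in 4.84%, 3.21%, 4.46%, 6.25% and 1.6% of all 32851 promoters of the same length. None of the 5 is in the *Fzd5* or *Fzd7* window, of which 76.4% and 65.2% of the bases are G or C. The *Sfrp2* window holds TAATCC on the reverse strand, 96 bases before the start, and ATGCAAAT, also on the reverse strand. A match describes letters in this window and no match says nothing of a factor's binding.

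The share of each receptor in the Frizzled transcripts was then taken per kb of exon, as a description of the same counts. *Fzd7* made up 71.7 ± 1.54% (SD, n = 3) of the summed Frizzled level in untreated wild-type libraries and 57.2 ± 1.10% with doxycycline. Its mutant shares were 65.1 ± 1.21% and 63.8 ± 1.11%. *Fzd5* and *Fzd8* together went from 7.26 ± 0.642% to 13.2 ± 1.39% in the wild-type line and stood at 7.81 ± 0.435% and 7.63 ± 0.246% in the mutant line. *Fzd2* went from 11.9 ± 0.527% to 19.8 ± 0.957%, against 15.8 ± 0.490% and 17.2 ± 0.192% in the mutant line. The summed Frizzled level was 80.3 ± 2.94 CPM per kb in untreated and 71.0 ± 2.09 CPM per kb in treated wild-type libraries, and 84.2 ± 2.19 and 82.5 ± 2.08 CPM per kb in the mutant line. *Fzd7* stayed the most abundant in every group.

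**Figure D3:**
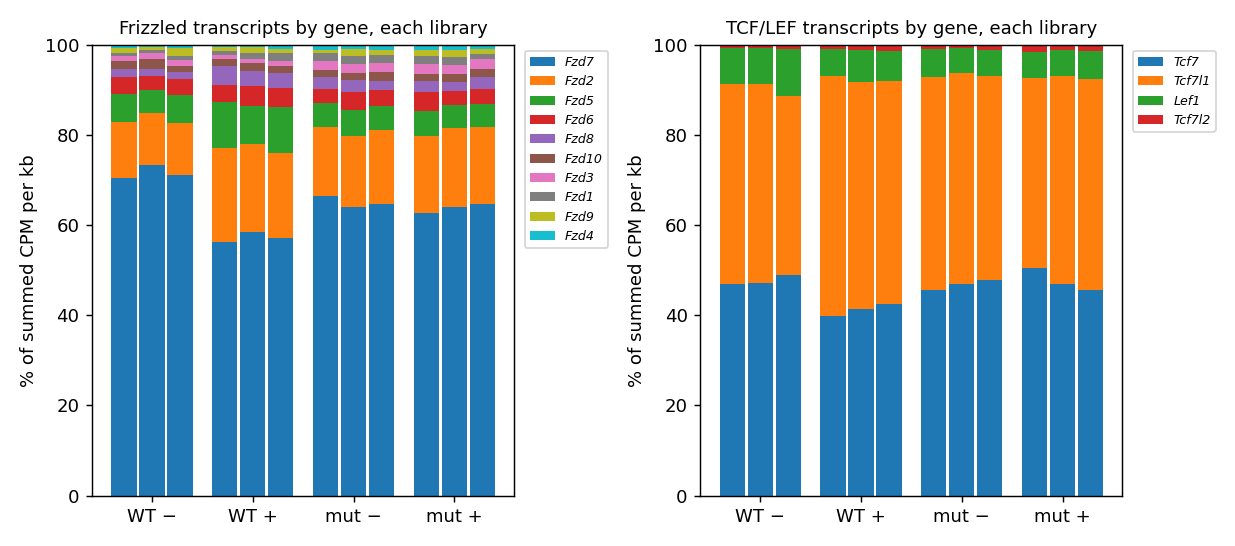
Share of each gene in the summed CPM per kb (y axis, percent) of the Frizzleds (left) and the TCF/LEF factors (right); each bar is a library, in groups of 3 by line (WT, wild-type; mut, mutant) without (−) and with (+) doxycycline. The *Fzd7* share is lowest, and the *Fzd5* and *Fzd8* shares highest, in the treated wild-type group, where the *Tcf7* share is also lowest.

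The remaining Frizzleds did not pass the test for doxycycline in either line. *Fzd3*, known for axon guidance and planar polarity, had wild-type libraries that did not overlap, with 12.4, 13.3 and 12.6 CPM untreated and 8.46, 9.5005 and 10.7 CPM treated, and its log2 fold change was -0.42 (SE 0.17, adjusted p = 0.158). The mutant line held 23.0, 21.6 and 21.6 and 22.1, 23.7 and 24.5 CPM. *Fzd6* had group means from 13.7 to 14.6 CPM. *Fzd1*, *Fzd4*, *Fzd9* and *Fzd10* had 118 to 269 counts over all libraries, so that small changes in them were not detectable at this depth. The co-receptors *Lrp5* and *Lrp6* had log2 fold changes of 0.16 (SE 0.08, adjusted p = 0.269) and 0.12 (SE 0.10, adjusted p = 0.631) in the wild-type line.

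Among the antagonists *Sfrp1* rose. SFRP1 is a secreted protein with a Frizzled-like domain that binds WNT. It stood at 27.1, 31.7 and 26.2 CPM in untreated and 48.9, 50.4 and 45.9 CPM in treated wild-type libraries (log2 fold change 0.77, SE 0.10, adjusted p = 6.58e-08), and at 29.0, 26.3 and 31.4 and 26.5, 30.3 and 25.96 CPM in the mutant line (log2 fold change -0.06, SE 0.11, adjusted p = 0.999). The 3 treated wild-type libraries were above the other 9, which overlapped across groups. *Sfrp2*, the most abundant of the family per kb (24.3 CPM per kb against 7.62 for *Sfrp1*), had a log2 fold change of 0.09 (SE 0.09, adjusted p = 0.739) in the wild-type line. In the mutant line it was -0.15 (SE 0.08, adjusted p = 0.999), with libraries that did not overlap. *Sfrp4* had 5.43 to 5.95 CPM untreated and 3.09 to 5.26 CPM treated in the wild-type line, without overlap, and its log2 fold change of -0.48 (SE 0.26, adjusted p = 0.368) did not pass. *Notum*, the deacylase of WNT, had -0.04 (SE 0.21, adjusted p = 0.964) and *Dkk3*, a divergent DKK protein, 0.14 (SE 0.47, adjusted p = 0.937). *Sfrp1* made up 25.3 ± 1.34% of the summed Sfrp and *Frzb* level per kb in untreated and 35.3 ± 2.31% in treated wild-type libraries, against 16.2 ± 0.859% and 17.0 ± 0.676% in the mutant line.

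The other antagonists were rare. *Frzb*, another Frizzled-related antagonist, had 0 counts in untreated and 7 in treated wild-type libraries, at least 2.32-fold higher against a floor of 3 counts over the group, and 20 and 16 counts in the mutant line. A count of 0 in a group allows up to 0.229 CPM, for counting error only. *Dkk1*, the classical LRP antagonist of the head organizer, had 36 counts over all libraries, 10, 8, 9 and 9 in the groups (untreated and treated wild-type, untreated and treated mutant). *Sfrp5* had 38 counts in all, 9, 16, 6 and 7 in the same order. *Dkk2* had 2 counts and *Dkk4* none, which allows up to 0.0549 CPM over all libraries.

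**Figure D4:**
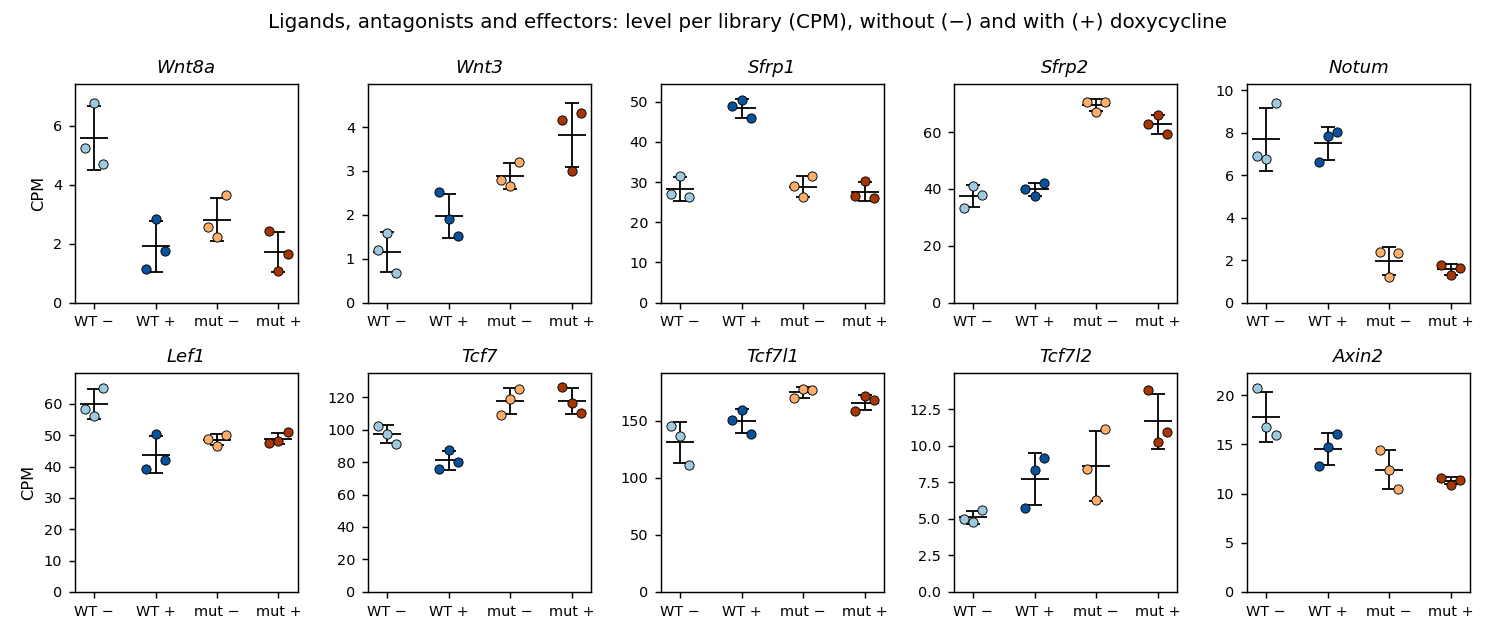
Level of a ligand pair, 3 antagonists, 4 TCF/LEF effectors and *Axin2* in CPM (y axis) per library; groups and bars as in the plot of Frizzled levels. *Sfrp1* is high only in treated wild-type libraries, and *Notum* is higher and *Sfrp2* lower in the wild-type line with and without doxycycline.

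WNT ligands were near the limit of detection, and 12 of the 19 had under 30 counts over all libraries. These were *Wnt1* (0 counts), *Wnt10a* (2), *Wnt8b* (2), *Wnt3a* (6), *Wnt10b* (8), *Wnt2* (8), *Wnt6* (8), *Wnt9b* (10), *Wnt11* (14), *Wnt2b* (17), *Wnt16* (19) and *Wnt7a* (22). Only *Wnt3*, *Wnt4*, *Wnt8a* and *Wnt9a* were tested. *Wnt8a*, a ligand of the early streak, led with 1.72 CPM per kb over all libraries. It stood at 5.23, 6.78 and 4.71 CPM in untreated and 1.14, 2.85 and 1.74 CPM in treated wild-type libraries (log2 fold change -1.54, SE 0.33, adjusted p = 0.000978), or 73 against 25 counts. In the mutant line it stood at 2.58, 2.24 and 3.64 and 2.41, 1.07 and 1.65 CPM, 40 against 24 counts (log2 fold change -0.71, SE 0.38, adjusted p = 0.999). The untreated wild-type libraries were the 3 highest. The wild-type minus mutant response was -0.83 (SE 0.53, adjusted p = 0.553) on the log2 scale, which did not pass, so the responses of the lines were not shown to differ. *Wnt3* had 15 and 26 counts in untreated and treated wild-type groups and 41 and 54 in the mutant groups, with log2 fold changes of 0.77 (SE 0.46, adjusted p = 0.434) and 0.41 (SE 0.31, adjusted p = 0.999). *Wnt4* had 100 and *Wnt9a* 117 counts over all libraries, with group means from 1.47 to 2.19 and from 1.66 to 2.72 CPM. *Wnt5a*, *Wnt5b* and *Wnt7b*, known for signalling that does not pass through β-catenin or for neural tissue, had 76, 67 and 51 counts and were not tested.

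Among the effectors *Lef1* and *Tcf7* fell, and these are the TCF/LEF factors best known as activators. *Lef1* stood at 58.3, 56.3 and 65.2 CPM in untreated and 39.1, 50.4 and 42.0 CPM in treated wild-type libraries (log2 fold change -0.46, SE 0.09, adjusted p = 0.000184), and at 48.9, 46.6 and 50.05 and 47.6, 48.1 and 50.9 CPM in the mutant line (log2 fold change 0.01, SE 0.09, adjusted p = 1). *Tcf7* stood at 103, 97.4 and 91.5 CPM in untreated and 75.9, 87.6 and 79.8 CPM in treated wild-type libraries (log2 fold change -0.26, SE 0.07, adjusted p = 0.0144), and at 109, 119 and 125 and 126, 117 and 110.0 CPM in the mutant line (log2 fold change -0.00, SE 0.06, adjusted p = 1). For *Lef1* the untreated wild-type libraries were the 3 highest and for *Tcf7* the treated ones the 3 lowest. The call on *Tcf7* was lost with DESeq2 (adjusted p = 0.102) and without any single wild-type replicate other than untreated replicate 3 and treated replicate 2 (0.0547 to 0.111). *Tcf7l1*, the repressor of the family in pluripotent cells, stood at 146, 137 and 111 CPM untreated and 151, 159 and 138 CPM treated in the wild-type line, and its log2 fold change was 0.19 (SE 0.07, adjusted p = 0.123). It passed without untreated wild-type replicate 1 (adjusted p = 0.0112) and without the filter on low counts (0.0384). *Tcf7l2* stood at 4.995, 4.75 and 5.60 CPM untreated and 5.71, 8.31 and 9.13 CPM treated, without overlap, with a log2 fold change of 0.59 (SE 0.24, adjusted p = 0.168). Per kb *Tcf7l1* (39.6) and *Tcf7* (39.4) were about level and above *Lef1* (5.72) and *Tcf7l2* (0.943). Within the family *Tcf7l1* went from 42.8 ± 2.68% to 50.9 ± 1.92% of the summed level per kb in the wild-type line, against 46.5 ± 1.08% and 45.0 ± 2.37% in the mutant line. An antisense gene, *Gm43352*, covers 13.7% of the *Lef1* exons, with the same limit as for *Fzd5*.

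*Ctnnb1*, which encodes β-catenin, was the most abundant member at 199 CPM per kb and had log2 fold changes of -0.02 (SE 0.04, adjusted p = 0.919) in the wild-type and -0.02 (SE 0.04, adjusted p = 0.999) in the mutant line. *Axin1* and *Apc*, scaffolds of the destruction complex, had -0.21 (SE 0.07, adjusted p = 0.0727) and 0.03 (SE 0.14, adjusted p = 0.952) in the wild-type line. Without untreated wild-type replicate 3 *Axin1* passed (adjusted p = 0.013). *Axin2*, a scaffold and a common readout of β-catenin signalling, had 15.9 to 20.7 CPM untreated and 12.8 to 16.1 CPM treated, and a log2 fold change of -0.28 (SE 0.15, adjusted p = 0.348). *Nkd1*, a feedback inhibitor, had -0.24 (SE 0.30, adjusted p = 0.786), and *Sp5*, another target gene, had 8 counts over all libraries. *Lgr4*, a receptor for R-spondins, was abundant (21.0 CPM per kb) and had -0.03 (SE 0.06, adjusted p = 0.882). *Znrf3*, the ligase that removes Frizzleds from the surface, had -0.02 (SE 0.13, adjusted p = 0.967). *Lgr5* and *Rnf43*, the relatives of these genes, had 54 and 60 counts and were not tested.

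The responses of the lines were compared by the interaction term, the wild-type minus the mutant log2 fold change. It passed for 6 of the 32 members tested (4 higher, 2 lower), where 2.49% of all genes passed (1.40% higher and 1.09% lower). All 6 were among the 8 members called in the wild-type line. The wild-type libraries enter both tests, so this overlap is in part set by the selection and adds no support. The differences were -0.44 (SE 0.07, adjusted p = 1.37e-05) for *Fzd7*, 0.83 (SE 0.15, adjusted p = 0.000129) for *Sfrp1*, 1.13 (SE 0.24, adjusted p = 0.00215) for *Fzd8*, 0.63 (SE 0.14, adjusted p = 0.00379) for *Fzd5*, 0.47 (SE 0.12, adjusted p = 0.019) for *Fzd2* and -0.47 (SE 0.12, adjusted p = 0.0212) for *Lef1*. The 4 Frizzleds called with doxycycline thus also differed in response between the lines, 3 of them with a larger rise and 1 with a larger fall in the wild-type line. *Tcf7* (-0.26, SE 0.10, adjusted p = 0.17) and *Wnt8a* did not pass, though *Tcf7* did without both libraries that stand apart (-0.36, adjusted p = 0.0288). *Tcf7l1* (0.27, SE 0.10, adjusted p = 0.165) passed without untreated wild-type replicate 1 (0.0246). The calls on *Fzd2* and *Lef1* depended on single libraries: *Fzd2* was lost without untreated wild-type replicate 2 or 3, treated wild-type replicate 1, untreated mutant replicate 3 or treated mutant replicate 1 (adjusted p = 0.0519 to 0.0674), without both libraries that stand apart (0.104) and with DESeq2 (0.177). *Lef1* was lost without untreated wild-type replicate 3, treated wild-type replicate 1 or 3, untreated mutant replicate 2 or treated mutant replicate 3 (0.0749 to 0.0886) and with DESeq2 (0.184). In the mutant line alone the treated and untreated libraries did not overlap for 3 of 32 members (*Fzd5*, *Sfrp2* and *Ctnnb1*, all lower), where 10.6% of all genes did not overlap (5.30% higher and 5.28% lower).

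The lines differed from each other at more members than doxycycline changed. Without doxycycline 17 of the 32 members passed, 5 higher and 12 lower in the wild-type line, where 45.5% of all genes passed (22.6% higher and 23.0% lower). With doxycycline 14 passed, 4 higher and 10 lower, where 44.4% of all genes did (22.4% higher and 21.9% lower). The libraries of the lines did not overlap for 19 members without and 17 with doxycycline, where 51.8% and 51.7% of all genes did not. The share of members called was thus near that of all genes. Both comparisons hold libraries that also stand in the doxycycline comparisons, so the values are set side by side. Of the 10 members called in both, 9 went the same way: *Notum* was higher, and *Fzd3*, *Fzd4*, *Lrp5*, *Sfrp2*, *Ctnnb1*, *Tcf7*, *Tcf7l2* and *Wnt3* were lower in the wild-type line. *Fzd8* was lower without and higher with doxycycline.

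*Notum* had the largest difference among the 32 members tested: 6.90, 6.78 and 9.41 CPM in untreated wild-type against 2.36, 1.22 and 2.35 CPM in untreated mutant libraries, a log2 difference of 1.96 (SE 0.28, adjusted p = 6.4e-08), and 6.63, 7.84 and 8.04 against 1.75, 1.28 and 1.65 CPM with doxycycline, 2.25 (SE 0.30, adjusted p = 9.16e-09). All 6 wild-type libraries were above all 6 mutant ones. Antisense genes cover 29.4% (*Notumos*) and 8.72% (*Myadml2os*) of its exons. *Notum* met the filter on low counts because of its wild-type libraries, and *Wnt3* because of its mutant libraries. Each was thus tested only through the line where it was higher. The ranking also leaves out members that were not tested, such as *Frzb*. *Sfrp2*, whose promoter is shown above, was lower in the wild-type line: 33.3, 41.1 and 37.9 against 70.6, 67.0 and 70.6 CPM untreated, -0.89 (SE 0.08, adjusted p = 3.55e-13), and 40.0, 37.5 and 42.0 against 62.9, 66.0 and 59.3 CPM treated, -0.65 (SE 0.08, adjusted p = 4.05e-09). *Gm26771* on the other strand covers 16.1% of its exons. *Frzb*, with no count in untreated wild-type libraries and 20 in untreated mutant ones, was at least 6.12-fold lower in the wild-type line. It was not tested with the filter on low counts, and without that filter edgeR called it (adjusted p = 2.91e-05). The *Wnt3* level was 1.19, 1.58 and 0.672 against 2.79, 2.65 and 3.21 CPM untreated, -1.31 (SE 0.41, adjusted p = 0.00749), and 2.51, 1.90 and 1.52 against 4.17, 2.99 and 4.33 CPM treated, -0.95 (SE 0.34, adjusted p = 0.02). *Wnt8a* was higher without doxycycline, 0.98 (SE 0.30, adjusted p = 0.00538), and had 0.15 (SE 0.43, adjusted p = 0.802) with it.

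Among receptors *Fzd3* differed most with doxycycline, -1.29 (SE 0.14, adjusted p = 4.92e-11) after -0.79 (SE 0.14, adjusted p = 2.99e-06) without it. The differences without and with doxycycline were -0.49 (SE 0.07, adjusted p = 2.38e-07) and -0.35 (SE 0.07, adjusted p = 8.36e-05) for *Lrp5*, whose libraries stood at 86.8, 76.9 and 87.4 against 127, 104 and 122 CPM untreated and 102, 93.8 and 85.4 against 121, 124 and 112 CPM treated. They were -0.75 (SE 0.25, adjusted p = 0.0131) and -0.92 (SE 0.26, adjusted p = 0.00368) for *Fzd4*, which stood at 4.04, 3.17 and 4.03 against 7.30, 5.29 and 6.42 CPM and 2.97, 2.38 and 4.35 against 5.92, 6.84 and 5.77 CPM. For *Fzd3*, *Lrp5* and *Fzd4* the wild-type libraries lay below all mutant ones, with and without doxycycline. *Fzd1* and *Fzd2* were lower without doxycycline, *Fzd1* at 2.14, 2.26 and 3.14 against 5.80, 6.11 and 6.42 CPM with -1.27 (SE 0.28, adjusted p = 0.000218) and *Fzd2* with -0.48 (SE 0.09, adjusted p = 1.4e-05). With doxycycline they did not pass, at -0.45 (SE 0.27, adjusted p = 0.176) and -0.01 (SE 0.08, adjusted p = 0.927). Without doxycycline 6 of 12 receptors were called, all lower in the wild-type line, beside 45.5% of all genes called and 23.0% called lower. The receptors called with doxycycline stood as follows between the lines: *Fzd8* had -0.71 (SE 0.18, adjusted p = 0.00129) without and 0.42 (SE 0.16, adjusted p = 0.0245) with it, *Fzd5* 0.01 (SE 0.10, adjusted p = 0.966) and 0.64 (SE 0.10, adjusted p = 1.96e-07), and *Fzd7* 0.07 (SE 0.05, adjusted p = 0.247) and -0.37 (SE 0.05, adjusted p = 1.51e-08). *Sfrp1* had -0.03 (SE 0.11, adjusted p = 0.871) and 0.81 (SE 0.10, adjusted p = 1.26e-09).

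**Figure D5:**
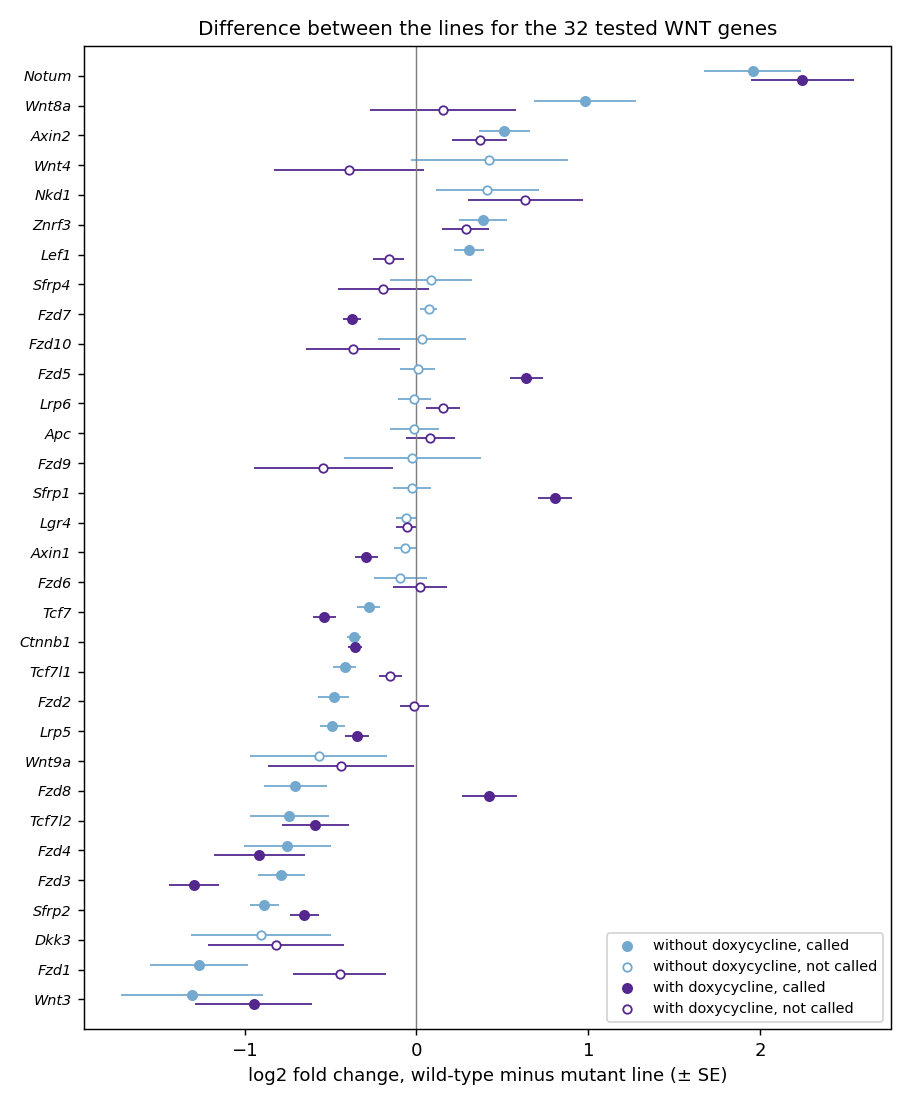
log2 difference wild-type minus mutant (x axis) of each member tested, without and with doxycycline, with bars of ± SE; filled points passed an adjusted p under 0.05. *Notum* lies farthest to the right in both, and *Fzd8* changes side.

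*Ctnnb1* stood at 919, 917 and 898 CPM in untreated wild-type and 1178, 1178 and 1167 CPM in untreated mutant libraries, -0.37 (SE 0.04, adjusted p = 3.67e-11). With doxycycline it stood at 896, 906 and 905 against 1160.4, 1138 and 1165 CPM, -0.36 (SE 0.04, adjusted p = 8.62e-11). Exons of *Ulk4* on the other strand cover 14.6% of it. *Tcf7l1* stood at 169.6, 178 and 177 CPM in untreated and 158, 171 and 168 CPM in treated mutant libraries, and differed by -0.42 (SE 0.07, adjusted p = 5.36e-06) without and -0.15 (SE 0.07, adjusted p = 0.0678) with doxycycline. The latter passed with the replicate number as a block (adjusted p = 0.0496), in 2 other fits (0.0221 and 0.0233), without treated wild-type replicate 2 (0.0318) and without both libraries that stand apart (0.00402). For *Tcf7* the differences were -0.28 (SE 0.07, adjusted p = 0.000468) and -0.54 (SE 0.07, adjusted p = 2.78e-09). *Tcf7l2* stood at 8.37, 6.31 and 11.1 and 13.8, 10.3 and 10.9 CPM in the mutant line, with -0.74 (SE 0.23, adjusted p = 0.00696) and -0.59 (SE 0.20, adjusted p = 0.0125). *Lef1* was the exception, higher in the untreated wild-type line by 0.31 (SE 0.08, adjusted p = 0.00248), with -0.16 (SE 0.09, adjusted p = 0.143) after doxycycline. Without treated wild-type replicate 2 the latter was -0.27 and passed (adjusted p = 0.0227), as it did without both libraries that stand apart (0.0188). Without doxycycline 5 of 5 effectors were thus called, 4 of them lower, and with it 3 of 5, all lower, beside 45.5% and 44.4% of all genes called and 23.0% and 21.9% called lower.

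*Axin2* stood at 20.7, 16.7 and 15.9 CPM in untreated wild-type and 14.4, 12.4 and 10.5 CPM in untreated mutant libraries, 0.51 (SE 0.15, adjusted p = 0.00435), and at 12.8, 14.7 and 16.1 against 11.6, 10.9 and 11.3 CPM with doxycycline, 0.37 (SE 0.16, adjusted p = 0.0579). *Znrf3*, without and with doxycycline, stood at 19.7, 19.7 and 21.7 against 17.6, 13.6 and 15.6 CPM, 0.39 (SE 0.14, adjusted p = 0.0181), and at 16.7, 21.1 and 22.4 against 17.1, 16.7 and 15.7 CPM, 0.29 (SE 0.14, adjusted p = 0.0822). *Axin1*, in the same order, stood at 109, 95.4 and 88.3 against 103, 101 and 101 CPM, -0.07 (SE 0.07, adjusted p = 0.44), and at 82.7, 81.0 and 89.1 against 97.8, 104 and 107 CPM, -0.29 (SE 0.07, adjusted p = 0.000387). *Axin2* and *Znrf3* were thus higher in the wild-type line without doxycycline, and *Axin1* lower with it. Without treated wild-type replicate 1, *Axin2* (adjusted p = 0.0362) and *Znrf3* (0.0233) also passed with doxycycline. Several of the calls between the lines were lost without 1 library. Without doxycycline they were *Wnt3* (without wild-type replicate 3, adjusted p = 0.0553), *Wnt8a* (wild-type replicate 2, 0.0511), *Axin2* (wild-type replicate 1, 0.0552), *Tcf7l2* (mutant replicate 3, 0.102), *Fzd4* (wild-type replicate 2, 0.0654, or mutant replicate 1, 0.0701) and *Znrf3* (wild-type replicate 3, 0.0726, or mutant replicate 2, 0.117). With doxycycline they were *Wnt3* (wild-type replicate 3 or mutant replicate 1 or 3, up to 0.1), *Fzd8* (wild-type replicate 1 or mutant replicate 1 or 2, up to 0.185) and *Tcf7l2* (wild-type replicate 1 or mutant replicate 1, up to 0.118). DESeq2 lost *Fzd4* (0.0717) and *Znrf3* (0.0771) without doxycycline and *Wnt3* (0.101), *Fzd8* (0.11) and *Tcf7l2* (0.0727) with it, and leaving out both libraries that stand apart lost *Wnt3* (0.056) and *Znrf3* (0.0631) without doxycycline.

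The rest of the pathway was described from lists chosen by function. In the wild-type response, against the 5.32% of all genes, 1 of 7 tested genes of WNT secretion was called, 3 of 12 extracellular modulators, 3 of 23 cytoplasmic regulators, 2 of 15 nuclear cofactors and 4 of 16 genes of the polarity branch. With doxycycline the mutant line had no call among these, where 0.0162% of all genes were. *Porcn*, the acyltransferase that puts the lipid on WNT, fell by 1.19 on the log2 scale (SE 0.29, adjusted p = 0.00521), and this call was lost without untreated wild-type replicate 3 (0.0608), without both libraries that stand apart (0.0903) and with DESeq2 (0.0558). *Gpc4* and *Gpc3*, glypicans that bind ligands at the surface, rose by 1.16 (SE 0.14, adjusted p = 3.72e-09) and 0.45 (SE 0.09, adjusted p = 0.00083), and *Shisa2*, which holds Frizzleds inside the cell, rose by 1.54 (SE 0.19, adjusted p = 6.04e-09). Without doxycycline *Gpc3*, *Gpc4* and *Shisa2* were called lower in the wild-type line than in the mutant line. With doxycycline *Gpc3* and *Gpc4* were not called between the lines, while *Shisa2* was. *Gpc3* and *Gpc4* lie 0.374 and 0.823 Mb from *Hprt* on the X chromosome, and whether their position bears on their rise was not tested. *Cxxc5*, an inhibitor that binds Dishevelled, rose by 1.09 (SE 0.08, adjusted p = 9.94e-16), while *Amer1*, a membrane scaffold that binds APC, and *Dvl1*, a Dishevelled, had -0.56 (SE 0.11, adjusted p = 0.000211) and -0.34 (SE 0.10, adjusted p = 0.028). The corepressors *Tle4* and *Ctbp2* had 0.20 (SE 0.05, adjusted p = 0.00542) and -0.16 (SE 0.05, adjusted p = 0.0173). In the polarity branch the receptors *Ror1*, *Celsr1* and *Ryk* rose by 1.18 (SE 0.16, adjusted p = 2.39e-07), 0.63 (SE 0.17, adjusted p = 0.0139) and 0.24 (SE 0.07, adjusted p = 0.0238). These receptors were called lower in the wild-type than in the mutant line without doxycycline. For *Ryk* this call between the lines was lost with DESeq2 (adjusted p = 0.13) and without both libraries that stand apart (0.0724). It was also lost without untreated wild-type replicate 1 or 3 or untreated mutant replicate 1 or 2 (0.0682 to 0.15). *Ptk7*, named after its value was seen, had -0.19 (SE 0.06, adjusted p = 0.0304). The calls on *Dvl1*, *Ctbp2*, *Ryk*, *Ptk7* and *Celsr1* were lost with DESeq2 (adjusted p = 0.0772 to 0.172) and without single wild-type replicates: *Dvl1* without untreated 2 or treated 1, 2 or 3 (0.0681 to 0.304), *Ctbp2* without untreated 1 or 2 or treated 2 (0.0782 to 0.123), *Ryk* without untreated 1 or 3 or treated 2 or 3 (0.0621 to 0.187), *Ptk7* without untreated 1, 2 or 3 or treated 2 (0.055 to 0.247) and *Celsr1* without untreated 1 or 2 or treated 2 (0.0558 to 0.0823).

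Of 12 tested genes known as WNT targets, 2 rose in the wild-type response: *Ccnd2*, a cyclin, by 1.95 (SE 0.15, adjusted p = 4.81e-15) and *Tnfrsf19* by 0.96 (SE 0.28, adjusted p = 0.0295), the latter lost in 8 of 13 alternatives: without untreated wild-type replicate 2 or 3 or treated wild-type replicate 2 or 3 (0.0529 to 0.284), without both libraries that stand apart (0.0996), and with DESeq2 (0.181), limma-voom (0.0643) or only the libraries compared (0.0562). Of 6 pluripotency genes known to be repressed by TCF7L1, *Nanog* and *Nr0b1* fell, with -0.48 (SE 0.09, adjusted p = 0.000335) and -0.33 (SE 0.10, adjusted p = 0.0435), the latter lost in 9 of 13 alternatives: without untreated wild-type replicate 2 or treated wild-type replicate 2 or 3 (0.163 to 0.292), without both libraries that stand apart (0.137), with the replicate number as a block (0.0569), and with DESeq2 (0.273), limma-voom (0.0537), upper-quartile scaling (0.0521) or only the libraries compared (0.062). The counts of both lists stand beside 5.32% of all genes called in the wild-type response. Neither list had a called gene in the mutant line, where 0.0162% of all genes were called. Over all genes 2.49% passed the interaction. The interaction passed for *Gpc4* (1.38), *Gpc3* (0.68), *Shisa2* (1.40), *Cxxc5* (1.16), *Amer1* (-0.57), *Tle4* (0.29), *Ror1* (1.21), *Celsr1* (0.88) and *Ccnd2* (2.35), all as log2 wild-type minus mutant response. It was lost for *Amer1* without treated wild-type replicate 1 (adjusted p = 0.0798) and with DESeq2 (0.0892), for *Celsr1* with DESeq2 (0.0786) and for *Tle4* without treated mutant replicate 3 (0.0537). Between the untreated lines 12 of 16 polarity genes were called, all lower in the wild-type line, with the smallest adjusted p for *Celsr3* (-1.27) and *Celsr1* (-1.46), and with doxycycline 12 were called, 2 higher and 10 lower. Of the 6 genes repressed by TCF7L1, 5 were higher without doxycycline, with the smallest adjusted p for *Klf2* (1.23) and *Nr0b1* (0.73), and with it 5 were higher and 1 lower. Of the 12 WNT targets, 6 were lower without doxycycline, with the smallest adjusted p for *Myc* (-0.57), and with it 1 was higher and 5 lower. *Ccnd2* and *Tnfrsf19* were among those lower without doxycycline. Of 7 genes of WNT secretion, 2 were higher and 3 lower without doxycycline, and 1 was higher and 3 lower with it. *Wls*, the carrier of WNT to the surface, was lower in the wild-type line by -2.06 (SE 0.19, adjusted p = 1.74e-13) without and -1.65 (SE 0.17, adjusted p = 6.63e-12) with doxycycline. Among extracellular modulators 6 of 12 were lower without doxycycline, and 1 was higher and 4 lower with it. Among cytoplasmic regulators 2 of 23 were higher and 10 lower without, and 2 higher and 11 lower with it. Among nuclear cofactors 5 of 15 were higher and 5 lower without, and 4 and 4 with it. These counts between the lines stand beside 45.5% and 44.4% of all genes called without and with doxycycline. By direction, 22.6% were higher and 23.0% lower without it, and 22.4% higher and 21.9% lower with it.

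Markers of other cells moved with some of these groups, and their part in the results was not tested. The summed level of 6 primitive streak markers was 9.27 to 13.9 CPM, 27.6 to 38.4 CPM, 20.2 to 23.3 CPM and 19.9 to 23.1 CPM in the untreated and treated wild-type and untreated and treated mutant groups. It was carried by *Eomes* (1.62, SE 0.15, adjusted p = 5.53e-12 in the wild-type response), the only one of the 6 that was tested. In the same order, 4 neural markers summed to 6.72 to 8.56 CPM, 14.3 to 15.5 CPM, 10.1 to 13.4 CPM and 10.3 to 11.9 CPM, where *Pax6* rose (1.32, SE 0.22, adjusted p = 2.13e-05). In that order, 4 definitive endoderm markers summed to 1.43 to 3.14 CPM, 4.57 to 5.71 CPM, 1.71 to 3.01 CPM and 1.28 to 2.68 CPM. *Foxa2*, the only 1 of these 4 that was tested, had 4.01 (SE 0.69, adjusted p = 2.82e-05) in the wild-type response. *Foxa2* met the filter on low counts because of the treated wild-type libraries, so it was tested only through the group where it was higher. The 7 markers of extraembryonic endoderm summed to 16.7 to 18.8 CPM, 11.3 to 15.4 CPM, 21.0 to 30.7 CPM and 22.4 to 25.8 CPM. The 5 trophoblast markers summed to 57.2 to 73.3 CPM, 67.2 to 76.6 CPM, 82.6 to 90.2 CPM and 96.7 to 98.9 CPM and the 5 fibroblast markers to 15.4 to 23.3 CPM, 15.9 to 17.6 CPM, 13.0 to 16.7 CPM and 14.95 to 15.9 CPM. No marker was at 0 over all libraries.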

How the data were processed

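Total RNA libraries (TruSeq, per the labels' protocols) of 12 samples were given as 1 deposited table of raw counts per gene symbol, with 23086 rows. Per the submitters' processing notes Trimmomatic 0.33, TopHat2 2.1.1, limma and the mm10 genome were used. No source used here gives the counting tool, the annotation or the strand setting. Groups and replicate numbers came from the sample titles. Replicates of a group differed by more than sampling noise (chi-square per degree of freedom 1.12 to 6.58), so none were merged.

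All 12 libraries were fitted together with edgeR 4.0.16 (R 4.3.3): TMM scaling, the filterByExpr filter (minimum count 10, which is 2.18 CPM here, and total 15), quasi-likelihood test with robust estimation and 1 mean per group, without a replicate block. This left 12322 genes. The 5 comparisons were the response to doxycycline per line, the interaction of line and doxycycline, and wild-type minus mutant without and with doxycycline. The call was an adjusted p (Benjamini-Hochberg, over all genes tested) under 0.05, and every adjusted p is from this test unless another tool is named. Standard errors were derived from the log2 fold change and the F statistic (SE = |log2 fold change| / √F). Exon lengths came from the union of exons in GENCODE M21, the same genome build, in which all 55 members were found. A floor of 3 counts was used for groups at 0, and such limits cover counting error only.

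The members and lists were chosen with earlier results of these data known. Members with at least 30 counts are described, those called in full. From the other pathway lists at most 3 called genes per list are named in the wild-type response and at most 2 in other comparisons, by adjusted p, with others named for being 1 of a small count. Several genes named in the wild-type response are also named by their calls between the lines. A gene that met this rule is not reported here. Counts of 12322 genes were simulated with 1 level per gene over all 12 libraries and the fitted spread, without a line difference. In treated wild-type libraries 50 genes were changed per fold. The fit gave back 58% of genes raised 1.5-fold, 86% of those raised 2-fold and 100% of those raised 4-fold. It gave back 80% of those lowered to 0.5 of their level, with 7.43% of calls false. These rates hold for that setting and were not taken for the members. Alternatives were DESeq2 1.42.0, limma-voom (limma 3.58.1), upper-quartile scaling, no filter, only the libraries compared, a replicate block, each replicate left out, and, added after seeing the data, both libraries that stand apart left out.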

Additional observations from a re-analysis of the deposited data

Results flagged for a closer look

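The change with doxycycline differed between the lines for 6 members by edgeR's interaction term. As wild-type minus mutant response on the log2 scale it was 1.13 for *Fzd8*, 0.83 for *Sfrp1*, 0.63 for *Fzd5*, 0.47 for *Fzd2*, -0.44 for *Fzd7* and -0.47 for *Lef1*. Over all genes 2.49% passed this test. The call was lost in 7 alternatives for *Fzd2* and in 6 for *Lef1*, and in none for the other 4. In the wild-type line all 3 treated libraries lay on 1 side of all 3 untreated ones for each of the 6 genes, as for 18.9% of all genes. The 6 were called from these same libraries, so this describes the calls and adds no support to them.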

How the results depend on the processing

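Of the 45 calls on members over the 5 comparisons, 33 held in every alternative run, 12 were lost in at least 1 and none changed sign. Over these alternatives the members called numbered 7 to 9 in the wild-type response, 0 in the mutant response, 4 to 7 in the interaction, 15 to 18 between untreated and 11 to 17 between treated lines. Over all genes, DESeq2 called 380 in the wild-type response, where edgeR called 655, and 153 in the interaction, where edgeR called 307. A fit of only the mutant libraries called 5 genes in the mutant response, where the fit of all 12 called 2. The cause was not tested. Leaving out 1 replicate gave 501 to 599 genes in the wild-type response, 229 to 322 in the interaction, 4914 to 5140 between untreated and 4748 to 4957 between treated lines. With the replicate number as a block, 8 members were called in the wild-type response, 0 in the mutant response, 6 in the interaction, 17 between untreated and 15 between treated lines, and 618, 2, 286, 5502 and 5354 genes. Replicates of the same number did not deviate together (correlations from -0.0615 to 0.0794), so no pairing by number was seen. With 3 libraries per group these correlations cannot exclude one. Of 136 calls on other pathway genes 101 held in every alternative and none changed sign. At 4289984 to 4850393 counts per library, most WNT ligands, *Dkk1* and *Rnf43* were too rare for small changes to be detectable.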
